A study of Mus musculus with 12 samples.

Results

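Interferon response genes are the transcripts that cells raise after interferon binds its receptor. Here 38 of them, listed by name, were followed in mouse leukemia cells in which Rictor, a subunit that the kinase complex mTORC2 needs, was deleted or left intact. Of the 38 genes, 36 had a probe set naming them alone among 18194 genes with such a probe set, and all 36 passed the filter on dim genes. Each was read by its brightest such probe set. The exceptions were Isg15, whose probe set also carries a second symbol, and Ifi44. The 36 genes were read on 12 Affymetrix arrays in 4 groups of 3: MLL-NRIP3 RictorΔ/Δ, MLL-NRIP3 Control, MLL-AF9 RictorΔ/Δ and MLL-AF9 Control. MLL-NRIP3 and MLL-AF9 are fusions of the MLL gene that drive the leukemia, RictorΔ/Δ cells carry a deletion of Rictor, and the labels give Control cells as wild type for Rictor. In every group the cells, which the labels call K+G- bone marrow cells, were taken by flow sorting in the first round of transplantation, at which point over 50% of white blood cells carried CD45.2. As host tissue, the labels name peripheral blood. The labels do not say what deleted Rictor, how old the mice were or whether an array held 1 mouse or several, so p-values measure the spread between arrays alone.

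Type I interferons act through a receptor whose kinases phosphorylate STAT proteins, and STAT2 and IRF9 belong to a complex that binds the interferon-stimulated response element (ISRE) in promoters. Interferon gamma acts through another receptor and on promoters with the gamma-activated site (GAS), and the factor IRF1 carries part of that response. Many of the induced proteins block viruses, and others restrain the pathway or feed antigen presentation, and blood-forming and leukemia cells express a number of them without infection.

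Promoter sequences, 300 bases each from 250 before to 50 after a start site, were available from RefSeq (assembly GRCm38.p6) for 30 of the 38 genes. The ISRE core searched on both strands was GAAA, then 2 bases of any kind, then GAAA, and 13 of the 30 genes (43.3%) held it, against 3.99% of 27025 genes in the table. The GAS core searched was TTCNNNGAA, which reads the same on both strands, and 7 of the 30 genes (23.3%) held it, against 9.55% of genes. Of the 32851 promoters in the table, 3.44% held the ISRE core and 8.30% the GAS core. The motifs can overlap each other, and a match is a description of these letters only. The windows below belong to some of the genes given with their values in the results. Of the other genes given there array by array, Gbp2, Gbp3, Ifit1, Ifih1 and Bst2 held the ISRE core. Ifi47, Samd9l, Cmpk2, Ifi35, Irf9, Psmb9, Psmb8, Ifit2, Xaf1 and Lgals3bp held none, and Usp18, Oas2, Rtp4 and Mx1 had no window. Capitals mark the ISRE core on either strand.
Igtp (chr11:58199306-58199605, plus strand, 1 match): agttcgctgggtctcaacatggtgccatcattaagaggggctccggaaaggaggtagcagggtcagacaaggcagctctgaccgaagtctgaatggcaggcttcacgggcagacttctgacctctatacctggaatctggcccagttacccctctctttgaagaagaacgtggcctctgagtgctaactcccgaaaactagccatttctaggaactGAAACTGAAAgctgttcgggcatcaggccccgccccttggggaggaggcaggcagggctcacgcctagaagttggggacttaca
Irgm2 (chr11:58214727-58215026, plus strand, 1 match): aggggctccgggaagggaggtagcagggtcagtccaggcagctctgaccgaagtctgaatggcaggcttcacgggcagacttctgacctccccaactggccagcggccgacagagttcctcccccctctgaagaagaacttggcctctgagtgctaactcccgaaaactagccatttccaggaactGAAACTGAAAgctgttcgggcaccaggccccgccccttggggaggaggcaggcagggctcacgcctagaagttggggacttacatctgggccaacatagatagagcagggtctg
Irgm1 (chr11:48871371-48871670, minus strand, 2 overlapping matches): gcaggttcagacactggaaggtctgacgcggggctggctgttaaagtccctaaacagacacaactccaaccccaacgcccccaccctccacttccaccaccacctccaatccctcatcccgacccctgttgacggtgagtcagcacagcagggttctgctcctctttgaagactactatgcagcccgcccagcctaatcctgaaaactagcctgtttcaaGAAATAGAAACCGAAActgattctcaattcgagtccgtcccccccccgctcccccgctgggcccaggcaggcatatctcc
Rsad2 (chr12:26456403-26456702, minus strand, 1 match on the opposite strand): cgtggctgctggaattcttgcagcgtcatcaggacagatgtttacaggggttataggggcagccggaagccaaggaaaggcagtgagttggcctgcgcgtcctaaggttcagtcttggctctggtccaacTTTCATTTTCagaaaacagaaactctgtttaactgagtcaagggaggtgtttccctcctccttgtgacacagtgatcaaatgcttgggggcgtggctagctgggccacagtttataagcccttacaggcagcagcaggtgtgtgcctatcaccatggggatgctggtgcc
Stat2 (chr10:128270248-128270547, plus strand, 1 match on the opposite strand): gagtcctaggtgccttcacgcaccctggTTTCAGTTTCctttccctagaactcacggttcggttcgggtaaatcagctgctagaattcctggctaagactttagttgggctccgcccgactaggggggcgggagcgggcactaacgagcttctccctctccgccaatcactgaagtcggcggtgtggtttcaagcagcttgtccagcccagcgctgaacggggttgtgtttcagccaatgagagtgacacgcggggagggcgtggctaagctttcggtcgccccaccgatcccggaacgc
Tap1 (chr17:34187306-34187605, plus strand, no match): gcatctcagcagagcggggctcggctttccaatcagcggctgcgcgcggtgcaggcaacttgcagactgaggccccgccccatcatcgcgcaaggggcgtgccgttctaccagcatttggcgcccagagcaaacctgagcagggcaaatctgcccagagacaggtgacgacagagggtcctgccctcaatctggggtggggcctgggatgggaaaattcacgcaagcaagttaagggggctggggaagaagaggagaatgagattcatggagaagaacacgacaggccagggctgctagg
The Igtp and Irgm2 windows share an unbroken run of 61 bases, and their ISRE cores lie at positions -34 and -64 from the start sites. Both also hold the GAS core. The Irgm1 window shares no more than 11 bases in a run with either of them. The Tap1 window shares 275 of its 300 bases with that of Psmb9, which is read from the other strand.

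Intensities of the 36 genes were spread widely, with means over the 12 arrays between 9.26 for Oasl2 and 991 for Psmb8, and 6 genes averaged under 20. The median intensity of all probe sets lay between 13.6 and 14.2 on MLL-NRIP3 arrays and between 8.16 and 8.36 on MLL-AF9 arrays. Within a model the values were therefore used as deposited, and for comparisons of the models all 12 arrays were quantile normalized. Differences are on the scale of log2(intensity + 16), which understates the change of dim genes, and a gene was called at a Benjamini-Hochberg adjusted p under 0.05 in limma over 12582 genes. MLL-NRIP3 Control arrays 1 and 2 stood apart from the rest of their model, with Gapdh 5′/3′ ratios of 0.562 and 0.738 against 0.881 to 0.965 on the other 4 arrays. Their Actb 5′/3′ ratios were 0.448 and 0.474, against 0.614 to 0.714. Their hybridization controls averaged 11.2 and 10.6 (log2), against 9.31 to 9.53. Both are Control arrays, so these array measures run partly with genotype in MLL-NRIP3 leukemia, and their part in the differences was not tested. In MLL-AF9 leukemia, the X-linked transcript Xist read 34.3 to 208 in RictorΔ/Δ and 2348 to 2441 in Control, so genotype and sex cannot be told apart there. In MLL-NRIP3 leukemia Xist read 2509 or more on all 6 arrays. The brightest Rictor probe set averaged 104 in MLL-NRIP3 RictorΔ/Δ against 113 in Control, and 87.5 in MLL-AF9 RictorΔ/Δ against 86.8 in Control. Since the deleted part of Rictor is not given, these values do not check the labels. Kit, a receptor of stem and progenitor cells, and Ptprc (CD45), an antigen of leukocytes, read 135 or more on every array, and Ly6g had no probe set naming it alone.

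**Figure D1:**
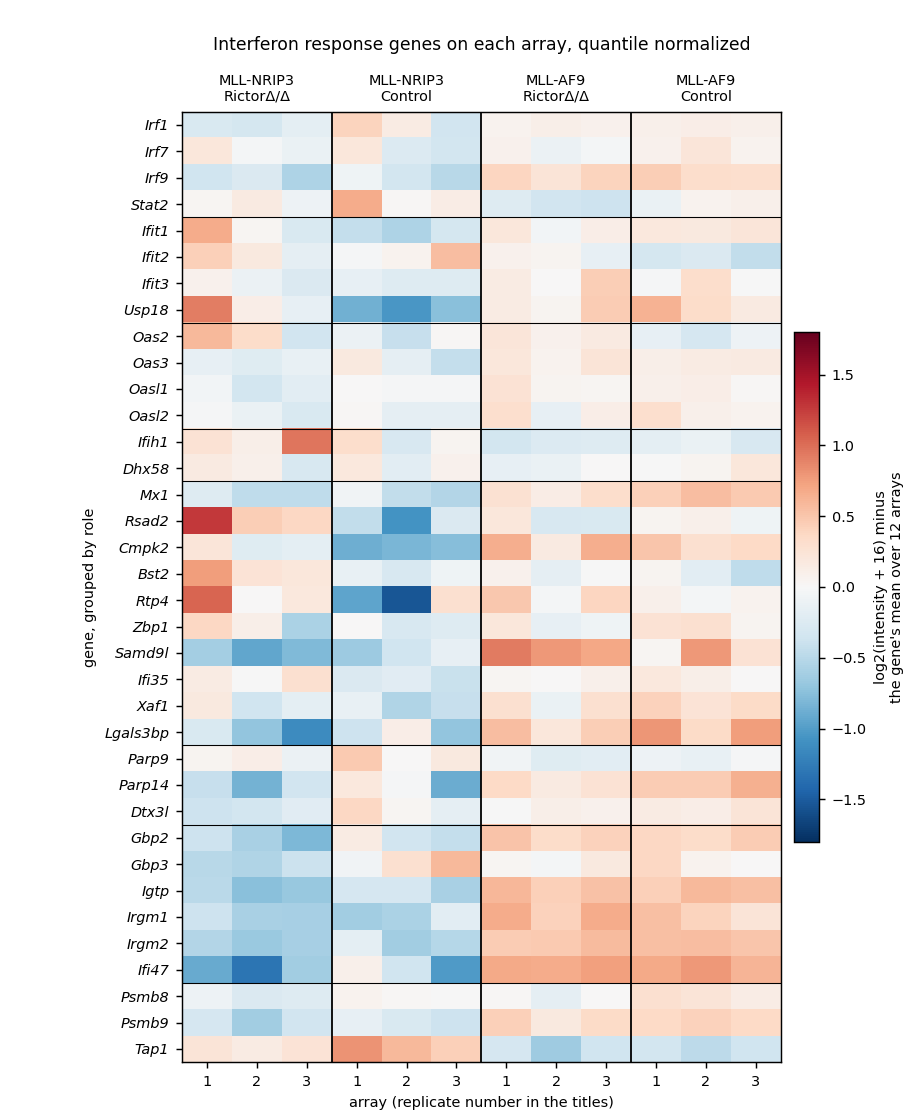
The heat map gives the 36 genes (rows, grouped by role) on each of the 12 arrays (columns, 3 per group) as log2(intensity + 16) after quantile normalization, minus the mean of the gene over all arrays, so red is above and blue below that mean. The interferon-inducible GTPases from Gbp2 to Ifi47 are mostly blue on MLL-NRIP3 arrays and red on MLL-AF9 arrays, and Usp18, Rsad2 and Rtp4 are reddest on MLL-NRIP3 RictorΔ/Δ array 1.

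The first comparison set RictorΔ/Δ against Control cells in MLL-NRIP3 leukemia. Usp18 rose from a mean intensity of 11.2 in Control to 54.8 in RictorΔ/Δ. It is a protease that removes ISG15 from proteins and blocks the type I interferon receptor. On the scale of the differences, which understates the change of dim genes, the rise was 2.48-fold. Usp18 was the only gene of the 36 called (2.78%), against 1.56% of all genes tested, 0.795% higher and 0.763% lower. Of the 4 IFIT and ISG15-linked genes 3 had positive differences, Usp18 among them (median 0.40). Of the 10 antiviral effectors measured, 7 had positive differences (median 0.32), whereas all 6 interferon-inducible GTPases (median -0.36), all 3 class I antigen processing genes (median -0.21) and all 3 PARP and DTX3L genes (median -0.32) had negative ones. The other roles were mixed, with 1 of 4 transcription factors, 1 of 4 oligoadenylate synthetase genes and 1 of 2 RNA sensors positive, and no difference between roles was tested. In limma, 6 antiviral effectors, 2 GTPases, 1 class I gene and 1 PARP or DTX3L gene had an unadjusted p under 0.05, as had 12 of the 36 genes in all. Counts at an unadjusted p, here and below, stand without the share of all genes tested, so whether they exceed it is not known. Over the 36 genes the median was -0.08, against 0.00 for all genes tested, with 13 positive and 23 negative differences. The groups did not overlap for 11 of the 36 genes, 6 higher and 5 lower, against 22.4% of all genes tested, 9.7% higher and 12.7% lower.

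Usp18 read 88.001, 45.1 and 31.4 in RictorΔ/Δ, against 11.4, 7.53 and 14.7 in Control. All 3 RictorΔ/Δ arrays lay above all 3 Control arrays, and RictorΔ/Δ array 1 was the highest (log2 difference 1.31 ± 0.26 (SE), limma adjusted p = 0.048). The call ended without Control array 1 or 2 or RictorΔ/Δ array 1 or 2 (adjusted p from 0.055 to 0.18) and without Control arrays 1 and 2 together (0.48). The log2 difference without RictorΔ/Δ array 1 was 0.99.

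Next by p came Cmpk2, Gbp3 and Rsad2, none of them called. Cmpk2, a mitochondrial nucleotide kinase, read 102, 73.9 and 65.3 in RictorΔ/Δ, against 38.1, 40.6 and 43.2 in Control (log2 difference 0.75 ± 0.17 (SE), limma adjusted p = 0.07). Rsad2, or viperin, an enzyme that makes a chain-terminating nucleotide against viral polymerases, read 198, 109.8 and 87.7 in RictorΔ/Δ, against 48.8, 25.2 and 58.3 in Control (log2 difference 1.27 ± 0.30 (SE), limma adjusted p = 0.084). Rsad2 and Cmpk2 are neighbours on chromosome 12, transcribed away from each other. For both genes the groups did not overlap, with RictorΔ/Δ higher. The 2 dimmer Rsad2 probe sets had the same sign, with log2 differences of 0.95 and 0.38.

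Gbp3, a guanylate-binding protein of the GTPase group, went the other way, with 181, 183 and 178 in RictorΔ/Δ, against 252, 320.0 and 412 in Control (log2 difference -0.78 ± 0.17 (SE), limma adjusted p = 0.074). Its RictorΔ/Δ values were nearly equal and all below the Control values, which differed among themselves. Ifi35, which forms complexes with the interferon-induced protein NMI, read 727, 664 and 764 in RictorΔ/Δ, against 539, 548 and 490.0 in Control (log2 difference 0.44 ± 0.11 (SE), limma adjusted p = 0.094). The groups did not overlap. Tap1, a subunit of the transporter that carries peptides to class I molecules, had a log2 difference of -0.43 ± 0.14 (SE), with an adjusted p of 0.16 in limma.

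Several further antiviral genes had positive differences and wide spreads. Rtp4, a transmembrane protein that limits viral replication, read 183, 84.4 and 83.998 in RictorΔ/Δ, against 32.7, 15.6 and 102 in Control. Control array 3 lay above RictorΔ/Δ arrays 2 and 3, so the groups overlapped (log2 difference 1.15 ± 0.46 (SE), limma adjusted p = 0.24). Ifit1, which binds viral RNA by its cap, read 49.6, 25.5 and 16.5 in RictorΔ/Δ, against 12.1, 9.36 and 15.03 in Control (limma adjusted p = 0.18). Bst2, or tetherin, which holds budding virions at the cell surface, read 199, 143 and 117 in RictorΔ/Δ, against 101, 87.5 and 106 in Control (limma adjusted p = 0.2). In both genes the RictorΔ/Δ values were all above the Control values, and in all 3 genes RictorΔ/Δ array 1 was the highest.

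That array read highest of its group for 27 of the 36 genes (75.0%), against 30.7% of all genes tested. MLL-NRIP3 Control array 1 read highest of its group for 22 of the 36 (61.1%), against 38.3% of all genes. In MLL-AF9 leukemia, RictorΔ/Δ array 1 did so for 23 of the 36 (63.9%), against 34.1%, and Control array 1 for 15 (41.7%), against 32.1%. Within groups the 36 genes varied more than the typical gene. Their median SD (log2) was 0.22 in MLL-NRIP3 RictorΔ/Δ and 0.24 in MLL-NRIP3 Control, against 0.14 and 0.15 for all genes tested, and 0.10 and 0.09 in MLL-AF9 RictorΔ/Δ and Control, against 0.06 and 0.08.

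**Figure D2:**
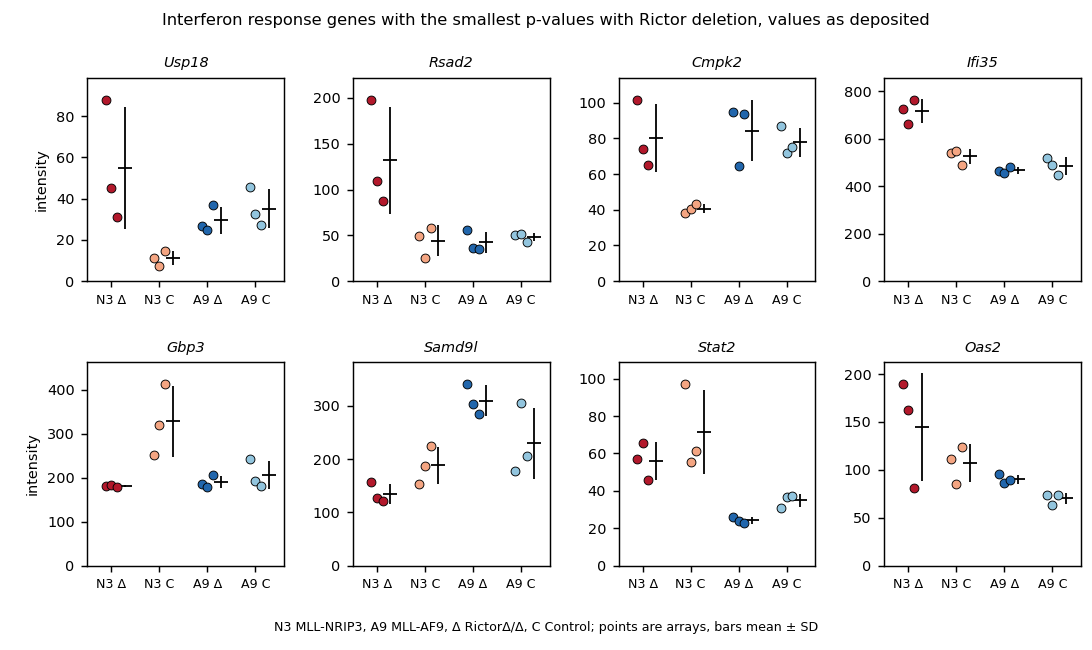
Deposited intensities (vertical axes from 0, linear) of 8 genes on the 12 arrays, with a point per array and bars for mean ± SD of 3. In MLL-NRIP3 leukemia Usp18, Rsad2, Cmpk2 and Ifi35 lie higher in RictorΔ/Δ than in Control and Gbp3 lies lower, and in MLL-AF9 leukemia Stat2 lies lower and Oas2 higher in RictorΔ/Δ.

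The second comparison set RictorΔ/Δ against Control cells in MLL-AF9 leukemia, where replicates agreed more closely and changes were small. Of the 36 genes, 2 were called (5.56%), against 8.26% of all genes tested, 3.79% higher and 4.47% lower. Stat2, the STAT particular to type I and III interferon signalling, was 1.27-fold lower in intensity + 16 (mean intensities 24.2 in RictorΔ/Δ and 34.9 in Control). Oas2, which makes the oligoadenylates that activate RNase L, was 1.23-fold higher on that scale (90.2 and 70.1). The median difference was -0.06, against -0.01 for all genes, with 12 positive and 24 negative differences between -0.34 and 0.44. The groups did not overlap for 8 of the 36 genes, 2 higher and 6 lower, against 27.0% of all genes tested, 11.3% higher and 15.7% lower.

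Stat2 read 26.2, 23.6 and 22.7 in RictorΔ/Δ, against 31.01, 36.5 and 37.1 in Control (log2 difference -0.34 ± 0.08 (SE), limma adjusted p = 0.02). Oas2 read 95.3, 86.1 and 89.3 in RictorΔ/Δ, against 73.1, 63.4 and 73.9 in Control (log2 difference 0.30 ± 0.08 (SE), limma adjusted p = 0.044). Neither gene's groups overlapped. The Oas2 call ended without any 1 of the 6 arrays (adjusted p from 0.058 to 0.16), and the Stat2 call without Control array 2 or 3 or RictorΔ/Δ array 2 or 3 (0.056 to 0.089).

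The next genes by p missed the threshold narrowly. Ifit2, an RNA-binding relative of Ifit1, read 45.04, 44.7 and 36.1 in RictorΔ/Δ, against 31.5, 32.8 and 26.5 in Control (log2 difference 0.32 ± 0.09 (SE), limma adjusted p = 0.051). Psmb8, a catalytic subunit of the immunoproteasome, read 846, 739.9 and 844 in RictorΔ/Δ, against 998, 976 and 888 in Control (log2 difference -0.23 ± 0.07 (SE), limma adjusted p = 0.056). Ifit2 lay higher and Psmb8 lower in RictorΔ/Δ, each without overlap. Mx1, a dynamin-like antiviral GTPase, had a log2 difference of -0.23 ± 0.07 (SE), with a limma adjusted p of 0.062. The largest difference belonged to Samd9l, an antiviral protein that also restrains myeloid cell growth, at 0.44 ± 0.15 (SE), and its groups overlapped (limma adjusted p = 0.1). The 6 GTPases showed 3 positive and 3 negative differences, from -0.10 for Gbp3 to 0.18 for Irgm1.

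**Figure D3:**
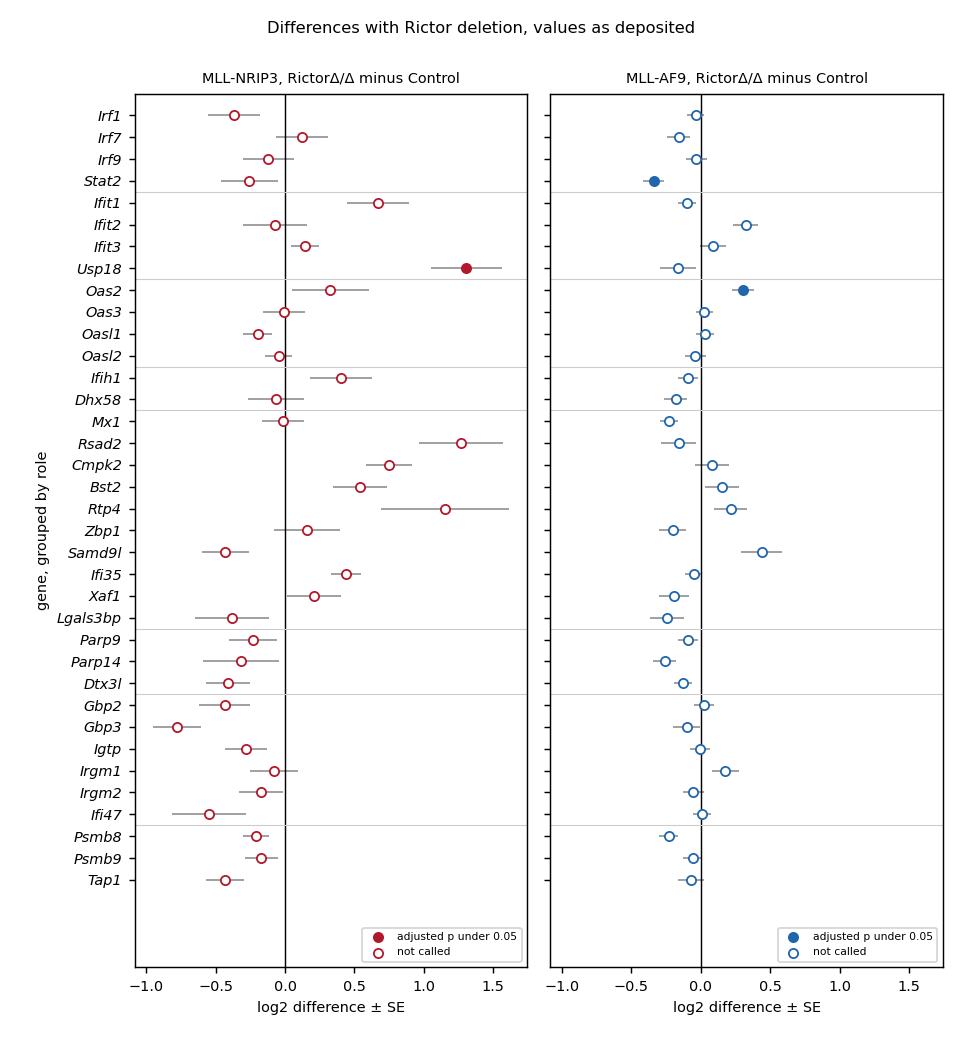
Log2 differences between RictorΔ/Δ and Control (horizontal axis, bars are SE) for the 36 genes (vertical axis, grouped by role) in MLL-NRIP3 leukemia, left, and MLL-AF9 leukemia, right, with filled points for calls. Usp18 is the filled point on the left, and Stat2 and Oas2 are those on the right, where no difference exceeds 0.44.

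Most markers of mature neutrophils moved in opposite directions in the models. The summed intensity of 17 such genes lay at 2063 to 2378 in MLL-NRIP3 RictorΔ/Δ against 5518 to 22464 in Control. There 5 of 17 were called lower, with 2 positive and 15 negative differences. In MLL-AF9 the sum lay at 31400 to 34860 in RictorΔ/Δ against 9480 to 13802 in Control, with 17 of 17 called higher. For 17 macrophage and monocyte genes the sums were 2394 to 3032 in MLL-NRIP3 RictorΔ/Δ against 2011 to 4626 in Control. There 0 were called in limma (5 at an unadjusted p under 0.05), with 4 positive and 13 negative differences. The sums were 3028 to 3467 in MLL-AF9 RictorΔ/Δ against 4117 to 4420 in Control, with 11 called lower (1 positive and 16 negative). Dendritic cell and MHC class II genes summed to 1078 to 1269 in MLL-NRIP3 RictorΔ/Δ against 1528 to 2699 in Control, and to 516 to 672 in MLL-AF9 RictorΔ/Δ against 696 to 857 in Control. Of 9 tested, 0 were called in MLL-NRIP3 (3 positive and 6 negative) and 3 lower in MLL-AF9 (2 positive and 7 negative). B and plasma cell genes summed to 94.6 to 134 in MLL-NRIP3 RictorΔ/Δ against 245 to 1179 in Control, and to 1204 to 1327 in MLL-AF9 RictorΔ/Δ against 1465 to 1643 in Control. Of 7 of them tested, 1 was called lower in MLL-NRIP3, where 5 differences were positive and 2 negative (median 0.05). The lowest was -3.09, so the sum there does not stand for the list. In MLL-AF9 3 were called lower, with 2 positive and 5 negative differences. Plasmacytoid dendritic cell genes, which belong to a strong source of interferon, summed to 337 to 424 in MLL-NRIP3 RictorΔ/Δ against 450 to 657 in Control, and to 553 to 565 in MLL-AF9 RictorΔ/Δ against 646 to 651 in Control. Of 10 tested, with Bst2, which the sums leave out, 0 were called in MLL-NRIP3 (3 positive and 7 negative, median -0.05). In MLL-AF9 1 was called lower (5 positive and 5 negative, median 0.01). Their defining marker Siglech read between 8.79 and 13.2 on all arrays. The part of these cells in the differences of the 36 genes was not tested, and in bulk samples fewer cells of a type and less RNA per cell cannot be told apart.

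The third comparison asked whether the response to Rictor deletion differed between the models, as MLL-NRIP3 minus MLL-AF9 after quantile normalization. Of the 36 genes, 3 were called (8.33%), all higher, against 4.92% of all genes tested in either direction, 2.37% higher and 2.55% lower. These were Usp18 (log2 difference of responses 1.34 ± 0.32 (SE), limma adjusted p = 0.033), Rsad2 (1.44 ± 0.35, 0.037) and Ifi35 (0.49 ± 0.12, 0.043). In MLL-AF9 leukemia Usp18 read 26.8, 24.7 and 36.8 in RictorΔ/Δ, against 45.7, 32.7 and 27.1 in Control, as deposited. Rsad2 read 55.7, 35.8 and 35.3 there in RictorΔ/Δ, against 50.4, 51.6 and 43.1 in Control. Ifi35 read 464, 454 and 481 in RictorΔ/Δ, against 520.4, 488 and 447 in Control. In each of these genes the MLL-AF9 groups overlapped, whereas the MLL-NRIP3 groups given above did not.

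The fourth gene by p was Samd9l, which missed the threshold with a negative difference of responses (-0.84 ± 0.25 (SE), limma adjusted p = 0.081). It read 157, 127 and 121 in MLL-NRIP3 RictorΔ/Δ, against 153, 187 and 224 in MLL-NRIP3 Control. In MLL-AF9 leukemia it read 341, 304 and 284 in RictorΔ/Δ, against 178, 305 and 205 in Control. All 6 GTPases had negative differences of responses, from -0.65 for Gbp3 to -0.12 for Irgm2, and none was called in limma, with 1 at an unadjusted p under 0.05. Sex differs with genotype in MLL-AF9 leukemia alone, so it cannot be told apart from these differences of responses (Xist 4.50). When any 1 of the 12 arrays was left out, between 0 and 6 of the 36 genes were called, against 2.63% to 12.4% of all genes tested. Without MLL-NRIP3 Control arrays 1 and 2, Usp18 and Rsad2 were not called (adjusted p of 0.12 each) and Ifi35 was (0.032).

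The models were then compared within each genotype, on quantile-normalized values. About as large a share of the 36 genes as of all genes was called, with more of the calls lower. MLL-NRIP3 leukemia showed lower levels of most interferon-inducible GTPases, of the immunoproteasome subunit Psmb9 and of Irf9, the DNA-binding subunit of the type I interferon complex, and a higher level of Tap1. Xist differed by 4.40 between RictorΔ/Δ groups and -0.10 between Control groups, so model and sex cannot be told apart in the RictorΔ/Δ pair. Between RictorΔ/Δ groups 20 of the 36 genes were called (55.6%), against 53.3% of all genes tested. Of these, 16 were lower (44.4%), against 22.4% of all genes, and 4 higher (11.1%), against 30.9%. Between Control groups 20 were also called (55.6%), against 50.8% of all genes, with 17 lower (47.2%), against 21.7%, and 3 higher (8.33%), against 29.1%. The median difference of the 36 genes was -0.29 between RictorΔ/Δ groups and -0.38 between Control groups, against 0.05 for all genes in each. The groups did not overlap for 21 of the 36 genes between RictorΔ/Δ groups, 16 lower and 5 higher, against 65.0% of all genes, 28.1% lower and 36.9% higher. Between Control groups they did not overlap for 25 genes, 22 lower and 3 higher, against 58.1% of all genes, 24.8% lower and 33.3% higher.

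The scaling sets the level of these differences. On values as deposited the median difference of all genes was 0.46 in each comparison, and that of the 36 genes was 0.13 between RictorΔ/Δ and 0.01 between Control groups. The calls on those values were 8 lower and 15 higher between RictorΔ/Δ groups, against 764 lower and 9003 higher of all 12582 genes tested (77.6% called). Between Control groups they were 7 lower and 12 higher, against 608 lower and 8978 higher of all genes (76.2% called). Relative to all genes the 36 genes' median stood at -0.33 between RictorΔ/Δ groups as deposited, against -0.34 after quantile normalization, and at -0.46 and -0.43 between Control groups. Each gene called after quantile normalization lay on the same side of the median of all genes under both scalings, 20 of 20 in each comparison. Quantile normalization keeps the order of genes on an array and mainly shifts the level between the models. Agreement relative to the median was therefore largely built in and is no separate check. Of the genes lower after quantile normalization, 8 of 16 between RictorΔ/Δ groups and 7 of 17 between Control groups were also called lower as deposited. Every gene called higher after quantile normalization was called higher as deposited, where the raised level of MLL-NRIP3 arrays favours such calls.

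The interferon-inducible GTPases had the lowest median of the 8 roles, at -1.10 between RictorΔ/Δ and -0.89 between Control groups. All 6 were called lower in MLL-NRIP3 between RictorΔ/Δ groups and 5 of 6 between Control groups, with Gbp3 the exception. On values as deposited Igtp, Irgm1, Irgm2 and Ifi47 were also called lower in both pairs, Gbp2 between RictorΔ/Δ groups only, and Gbp3 was called higher between Control groups (0.62) and not called between RictorΔ/Δ groups. Igtp, or Irgm3, which acts on vacuoles that hold intracellular parasites, read 149.8, 121 and 128 in MLL-NRIP3 RictorΔ/Δ, against 336, 295 and 319 in MLL-AF9 RictorΔ/Δ (log2 difference -1.16 ± 0.11 (SE), limma adjusted p = 3.6e-06). Between Control groups it read 172, 172 and 138 in MLL-NRIP3, against 295, 332 and 323 in MLL-AF9 (log2 difference -0.92 ± 0.11 (SE), limma adjusted p = 2.9e-05). Every MLL-NRIP3 array lay below every MLL-AF9 array.

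Irgm2, which starts near Igtp on chromosome 11, read 42.6, 37.1 and 39.96 in MLL-NRIP3 RictorΔ/Δ, against 100.1, 101 and 109 in MLL-AF9 RictorΔ/Δ (log2 difference -1.09 ± 0.11 (SE), limma adjusted p = 9.3e-06). In Control cells it read 58.7, 38.6 and 43.1 in MLL-NRIP3, against 107, 108 and 104 in MLL-AF9 (log2 difference -0.97 ± 0.11 (SE), limma adjusted p = 3.1e-05). The groups were again fully apart. Irgm1, a regulator of the other immunity-related GTPases and of blood stem cell survival, read 77.7, 64.6 and 63.5 in MLL-NRIP3 RictorΔ/Δ, against 176, 146 and 176 in MLL-AF9 RictorΔ/Δ (log2 difference -1.10 ± 0.13 (SE), limma adjusted p = 3.3e-05). Its Control values were 62.5, 65.2 and 89.6 in MLL-NRIP3, against 161, 143 and 126 in MLL-AF9 (log2 difference -0.86 ± 0.13 (SE), limma adjusted p = 0.00025). The pair of Control groups lay closer together than the RictorΔ/Δ pair without overlapping.

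Ifi47, a further immunity-related GTPase, gave the largest difference of the group. It read 122, 88.5 and 151 in MLL-NRIP3 RictorΔ/Δ, against 398, 398 and 416 in MLL-AF9 RictorΔ/Δ (log2 difference -1.65 ± 0.23 (SE), limma adjusted p = 7.9e-05). In Control cells it read 260.0, 186 and 112 in MLL-NRIP3, against 399.8, 429 and 379 in MLL-AF9 (log2 difference -1.12 ± 0.23 (SE), limma adjusted p = 0.0014). The MLL-NRIP3 Control arrays differed widely among themselves, and array 1 was the highest. Gbp2, a guanylate-binding protein read by a probe set that can cross-hybridize, read 14.5, 10.2 and 6.41 in MLL-NRIP3 RictorΔ/Δ, against 40.1, 33.5 and 36.5 in MLL-AF9 RictorΔ/Δ (log2 difference -1.01 ± 0.14 (SE), limma adjusted p = 0.00011). Its difference between Control groups was -0.60 ± 0.14 (SE, limma adjusted p = 0.0044). Gbp3 was lower between RictorΔ/Δ groups (-0.53 ± 0.15, 0.0092), and between Control groups its log2 difference was 0.12 (limma adjusted p = 0.53).

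**Figure D4:**
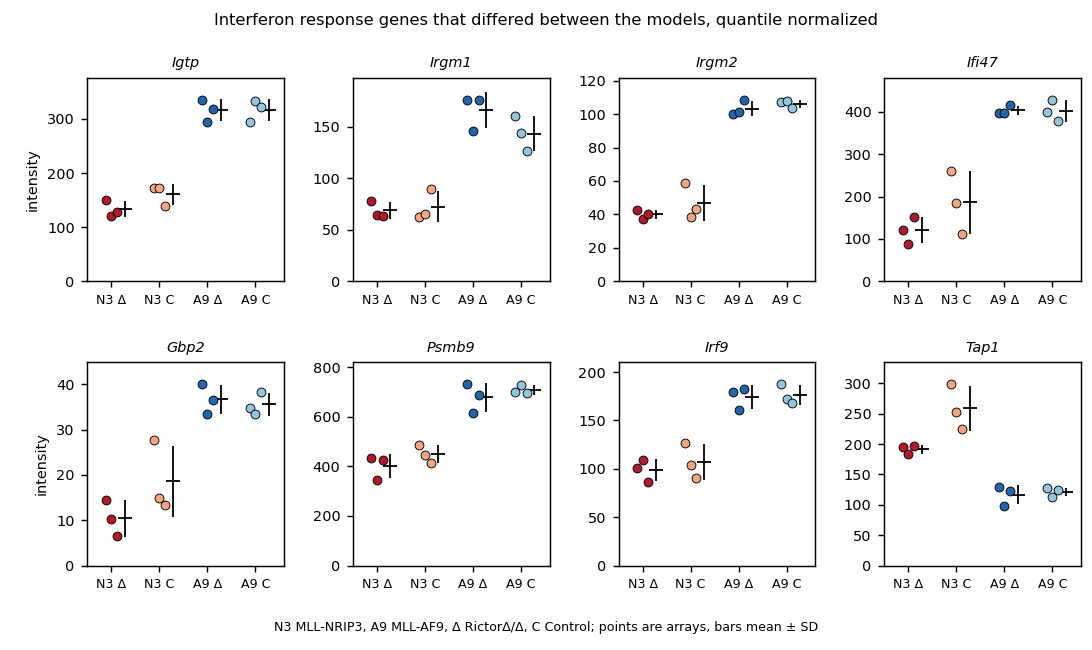
Quantile-normalized intensities (vertical axes from 0, linear) of 8 genes on the 12 arrays, with a point per array and bars for mean ± SD of 3. The MLL-NRIP3 arrays lie below the MLL-AF9 arrays of the same genotype for Igtp, Irgm1, Irgm2, Ifi47, Gbp2, Psmb9 and Irf9 and above them for Tap1.

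The class I antigen processing genes did not move together. Tap1 read 195, 183 and 197 in MLL-NRIP3 RictorΔ/Δ, against 129, 98.8 and 123 in MLL-AF9 RictorΔ/Δ (log2 difference 0.65 ± 0.11 (SE), limma adjusted p = 0.00049). In Control cells it read 299, 253 and 226 in MLL-NRIP3, against 127, 113 and 124 in MLL-AF9 (log2 difference 1.00 ± 0.11 (SE), limma adjusted p = 2.8e-05). Psmb9, a catalytic subunit of the immunoproteasome whose promoter window is largely that of Tap1, was lower in MLL-NRIP3. It read 435, 346 and 424 in MLL-NRIP3 RictorΔ/Δ, against 732, 615 and 689 in MLL-AF9 RictorΔ/Δ (log2 difference -0.74 ± 0.10 (SE), limma adjusted p = 6.1e-05). In Control cells it read 486, 447 and 415 in MLL-NRIP3, against 699, 731 and 698 in MLL-AF9 (log2 difference -0.64 ± 0.10 (SE), limma adjusted p = 0.00021). Tap1 was also called higher on values as deposited in both pairs, and Psmb9 was called lower on them between RictorΔ/Δ groups only. Psmb8 differed by -0.15 ± 0.07 (SE, limma adjusted p = 0.11) between RictorΔ/Δ groups and by -0.20 ± 0.07 (0.04) between Control groups, and on values as deposited these turned to 0.33 and 0.30, both called higher.

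Among the transcription factors, Irf9 read 101, 109 and 86.5 in MLL-NRIP3 RictorΔ/Δ, against 179.8, 160.4 and 183 in MLL-AF9 RictorΔ/Δ (log2 difference -0.73 ± 0.12 (SE), limma adjusted p = 0.00026). Its Control values were 127, 104 and 90.4 in MLL-NRIP3, against 188, 172 and 168 in MLL-AF9 (log2 difference -0.65 ± 0.12 (SE), limma adjusted p = 0.00068). On values as deposited neither difference was called. Stat2, Irf1 and Irf7 (regulators of type I and gamma interferon responses) were not called in either pair after quantile normalization, with Stat2 at 0.35 between RictorΔ/Δ and 0.26 between Control groups. Of the RNA sensors, Ifih1 was higher in MLL-NRIP3 between RictorΔ/Δ groups, with 312, 276 and 513 in MLL-NRIP3 against 199.8, 213 and 216 in MLL-AF9 (log2 difference 0.71 ± 0.19 (SE), limma adjusted p = 0.0078). Between Control groups Ifih1 was not called (log2 difference 0.22), nor was Dhx58 in either pair.

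Among antiviral effectors the 2 pairs gave different leaders. Samd9l read 129.8, 101 and 112 in MLL-NRIP3 RictorΔ/Δ, against 411, 366 and 347 in MLL-AF9 RictorΔ/Δ (log2 difference -1.59 ± 0.18 (SE), limma adjusted p = 1.7e-05). On the scale of the differences Samd9l was 3.00-fold lower there in MLL-NRIP3. Its difference between Control groups was -0.75 ± 0.18 (SE, limma adjusted p = 0.004). Cmpk2 led in Control cells, with 30.7, 32.3 and 34.5 in MLL-NRIP3 against 105, 88.9 and 94.1 in MLL-AF9 (log2 difference -1.21 ± 0.15 (SE), limma adjusted p = 5.0e-05). Between RictorΔ/Δ groups its difference was -0.54 ± 0.15 (0.0089), and the groups overlapped. Usp18 likewise was lower in MLL-NRIP3 Control, with 9.57, 6.56 and 11.8, against 56.5, 42.5 and 36.3 in MLL-AF9 Control (log2 difference -1.26 ± 0.23 (SE), limma adjusted p = 0.00062). Between RictorΔ/Δ groups Usp18 was not called (log2 difference 0.08, limma adjusted p = 0.79). On values as deposited Samd9l was called lower between RictorΔ/Δ groups only, and Cmpk2 and Usp18 between Control groups only, while Usp18 was called higher between RictorΔ/Δ groups (0.57). The comparisons of genotypes and of models share arrays, so these values are set side by side only.

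Mx1 was lower in MLL-NRIP3 in both pairs, with 12.7, 8.58 and 8.43 in MLL-NRIP3 RictorΔ/Δ against 24.8, 20.9 and 25.8 in MLL-AF9 RictorΔ/Δ (log2 difference -0.62 ± 0.11 (SE), limma adjusted p = 0.00062). In Control cells it read 16.3, 8.62 and 7.25 in MLL-NRIP3, against 29.1, 33.5 and 30.5 in MLL-AF9 (log2 difference -0.83 ± 0.11 (SE), limma adjusted p = 9.4e-05). On values as deposited Mx1 was called between Control groups only. Lgals3bp, a secreted glycoprotein, showed the same direction. It read 51.5, 33.7 and 21.2 in MLL-NRIP3 RictorΔ/Δ, against 103, 78.004 and 95.1 in MLL-AF9 RictorΔ/Δ (log2 difference -1.11 ± 0.23 (SE), limma adjusted p = 0.0017), and differed by -0.95 ± 0.23 (SE, 0.0048) between Control groups. Xaf1, an apoptosis-linked protein, was called between Control groups only, where it read 109.8, 79.3 and 88.3 in MLL-NRIP3, against 169, 147 and 159 in MLL-AF9 (log2 difference -0.69 ± 0.16 (SE), limma adjusted p = 0.0031). Ifi35 was also lower in MLL-NRIP3 Control, with 457, 472 and 411, against 627, 593 and 552 in MLL-AF9 Control (log2 difference -0.39 ± 0.09 (SE), limma adjusted p = 0.0028), and this difference turned to 0.11 on values as deposited. Lgals3bp was called on those values between RictorΔ/Δ groups only, and Xaf1 in neither pair.

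Further calls were as follows. Between RictorΔ/Δ groups Oasl1, Parp14, Dtx3l and Oas3 were lower in MLL-NRIP3 (log2 differences -0.30, -0.80, -0.36 and -0.33) and Rsad2 and Bst2 higher (0.82 and 0.43). Those of Oasl1, Dtx3l and Oas3 turned positive as deposited. Between Control groups Ifit1 and Parp14 were lower (-0.63 and -0.76) and Ifit2 and Parp9 higher (0.54 and 0.30). The 2 pairs have no array in common, although they share the normalization and the estimate of the spread. Of the genes called lower, 12 were called in both pairs, 75.0% of the 16 between RictorΔ/Δ and 70.6% of the 17 between Control groups, and for all genes tested these shares were 68.5% and 70.8%. Of the genes called higher, Tap1 alone was called in both, 25.0% of the 4 between RictorΔ/Δ and 33.3% of the 3 between Control groups, against 70.4% and 74.7% for all genes tested. After quantile normalization no gene of the 36 was called in opposite directions. On values as deposited Usp18 was, lower between Control groups (-0.90) and higher between RictorΔ/Δ groups (0.57).

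**Figure D5:**
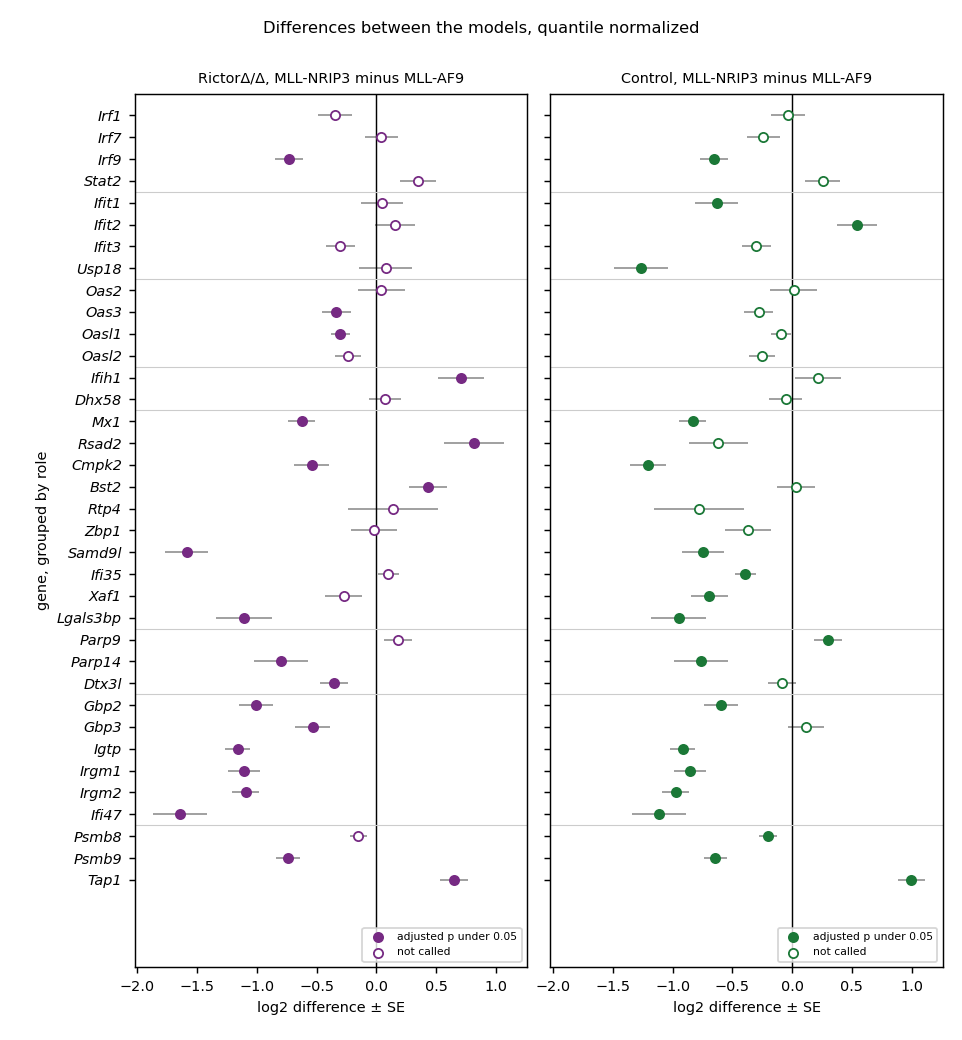
Log2 differences between MLL-NRIP3 and MLL-AF9 leukemia (horizontal axis, bars are SE) for the 36 genes (vertical axis, grouped by role) in RictorΔ/Δ cells, left, and Control cells, right, after quantile normalization, with filled points for calls. In each panel 20 points are filled, 16 below and 4 above 0 on the left and 17 below and 3 above 0 on the right.

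Cell type markers differed between the models too. After quantile normalization 11 of 17 macrophage and monocyte genes were called lower in MLL-NRIP3 between RictorΔ/Δ groups (median -0.55) and 13 of 17 between Control groups (median -0.94), with 2 of 17, Ccr2 and Cd14, called higher in each pair. Of the neutrophil genes, 17 of 17 were called lower between RictorΔ/Δ groups, and 1 lower and 1 higher between Control groups. Of 10 plasmacytoid dendritic cell genes tested, 6 were called lower and 2 higher between RictorΔ/Δ groups, and 4 lower and 0 higher between Control groups. Of 9 dendritic cell and MHC class II genes, 5 were called lower and 2 higher in each pair. Of 7 B and plasma cell genes tested, 7 were called lower in each pair. Of all genes tested, 22.4% were called lower and 30.9% higher between RictorΔ/Δ groups, and 21.7% lower and 29.1% higher between Control groups. The marker counts hold for quantile-normalized values only. The part of these markers in the differences of the 36 genes was not tested.

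Further genes of the pathway, 133 tested of 193 listed, give the surroundings of the 36. With Rictor deletion in MLL-NRIP3 leukemia, 1 was called higher and 0 lower in limma (0.752%, against 1.56% of all genes tested). An unadjusted p under 0.05 was found for 29, with no share of all genes to set beside it. In MLL-AF9 leukemia 8 were called higher and 11 lower (14.3%, against 8.26%). The MLL-NRIP3 gene was Ifitm1, which blocks entry of viruses, with 387, 294 and 167 in RictorΔ/Δ, against 68.4, 57.2 and 88.9 in Control (log2 difference 1.71 ± 0.28 (SE), limma adjusted p = 0.027). Its relative Ifitm3 (log2 difference 1.32, limma adjusted p = 0.058), the interferon gamma receptor gene Ifngr1 (-0.61, 0.06) and the feedback inhibitor Socs3 (0.94, 0.069) followed without being called.

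In MLL-AF9 leukemia the leaders were Slfn4, Ikbke, Ifnlr1 and Ms4a4c. Slfn4, a Schlafen gene of myeloid cells, read 404, 374 and 357 in RictorΔ/Δ, against 131, 190.1 and 158 in Control (log2 difference 1.18 ± 0.11 (SE), limma adjusted p = 4.9e-05). Ikbke, a kinase that activates interferon regulatory factors, read 73.1, 69.97 and 53.5 in RictorΔ/Δ, against 25.2, 24.6 and 24.5 in Control (log2 difference 0.99 ± 0.10 (SE), limma adjusted p = 0.0001). Ifnlr1, the receptor chain for type III interferons, read 32.5, 26.4 and 26.3 in RictorΔ/Δ, against 12.7, 13.4 and 11.1 in Control (log2 difference 0.64 ± 0.07 (SE), limma adjusted p = 0.00021). The groups of these 3 genes did not overlap. Ms4a4c read 38.9, 32.4 and 32.4 in RictorΔ/Δ, against 55.7, 74.2 and 58.8 in Control (log2 difference -0.64 ± 0.10 (SE), limma adjusted p = 0.0027). Its groups were also apart, with RictorΔ/Δ lower, and the neutrophil markers given above rose on the same arrays.

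The difference of responses called 3 of the 133 genes higher and 6 lower (6.77%, against 4.92% of all genes tested), led by Ifnlr1 (-0.75 ± 0.10 (SE), limma adjusted p = 0.0013), Ifitm1 (1.91 ± 0.29, 0.0031), Slfn9 (-0.80 ± 0.15, 0.0079) and Slfn4 (-2.19 ± 0.40, 0.0084). Between the models, 22 of the 133 were higher and 40 lower in MLL-NRIP3 RictorΔ/Δ (46.6%, against 53.3%), and 33 higher and 38 lower in MLL-NRIP3 Control (53.4%, against 50.8%). The leaders between RictorΔ/Δ groups were Ifnlr1 (-1.14, 2.5e-07), Ifitm1 (2.79, 8.7e-07), Socs3 (1.95, 1.5e-06) and Nmi (-1.62, 2.1e-06), as log2 differences with limma adjusted p. Between Control groups they were Epsti1 (-2.99, 7.1e-07), Trim21 (-1.05, 2.5e-06), Ifitm2 (1.96, 3.6e-06) and Ddx60 (-0.96, 3.9e-06). Of 16 interferon genes listed, 8 had a probe set naming them alone and 2, Ifnz and Ifna1, passed the filter on dim genes. Ifnz was called higher with Rictor deletion in MLL-AF9 leukemia (log2 difference 0.31, limma adjusted p = 0.02). Ifna1 was called higher in MLL-NRIP3 between RictorΔ/Δ groups (0.38, 0.0025) and between Control groups (0.23, 0.037). Interferon beta (Ifnb1) read between 4.90 and 7.93 and interferon gamma (Ifng) between 2.01 and 3.90 on all 12 arrays, and their means lay below the filter of 7.58.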

How the data were processed

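Gene expression of 12 mouse leukemia samples was measured on Affymetrix arrays hybridized with biotin-labelled cRNA made from 7 µg of total RNA, per the labels' protocols. The authors deposited an intensity on a linear scale for each probe set of each array. How they normalized it is not given in the sources at hand, neither in the labels nor in the file header. Of 45101 probe sets, 34958 carried 1 gene symbol in the platform annotation, 932 several and 9211 none. Only the first were named, and each of 18194 genes was read by its brightest probe set. The filter removed 5612 dim genes, with a mean under 7.58 (percentile 40 over every probe set on the array), and kept 12582.

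Log2(intensity + 16) was fitted in limma 3.58.1 (R 4.3.3, lmFit and eBayes with a trend), 2-sided, with Benjamini-Hochberg adjustment over all 12582 genes. Comparisons of RictorΔ/Δ with Control used the 6 arrays of the model as deposited (4 residual degrees of freedom), and those across models all 12 arrays after quantile normalization (8). The number of arrays, 3 per group, limits the precision. Tables used Python 3.11.15, pandas 2.3.3 and numpy 2.4.6, and figures matplotlib 3.10.9.

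The genes and lists were chosen with earlier results of these data known. Every called interferon response gene, up to the 12 with the smallest p per comparison, is given with its statistics, or the 4 with the smallest p where fewer were called. Of the other pathway genes up to 4 with the smallest p are named. Genes given beyond this rule were chosen after their values were seen. Alternatives were another scaling, pseudocount, filter, probe set rule and estimate of the spread, a replicate block, and arrays left out.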

Additional observations from a re-analysis of the deposited data

Results flagged for a closer look

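The difference of the responses to Rictor deletion, MLL-NRIP3 minus MLL-AF9, drew attention in 3 of the 36 interferon response genes, because the test of that difference passed the threshold. Usp18 differed by 1.34 on the log2 scale, Rsad2 by 1.44 and Ifi35 by 0.49, with limma adjusted p of 0.033, 0.037 and 0.043. When single arrays were left out, Usp18 was called in 5 of 12 fits, Rsad2 in 5 and Ifi35 in 3, with the highest adjusted p at 0.09, 0.1 and 0.11. The log2 differences then lay between 1.03 and 1.56, 1.15 and 1.60, and 0.42 and 0.56. No explanation for these differences was tested.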

How the results depend on the processing

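With Rictor deletion the counts of called genes depended on the fit. In MLL-NRIP3 leukemia 1 of the 36 interferon response genes was called, against 8 with the spread shared over all 12 arrays and 0 in limma with quantile normalization, without the filter, with the mean of the probe sets, with the replicate block or without Control arrays 1 and 2, where 6 to 12 had an unadjusted p under 0.05. In MLL-AF9 leukemia 2 were called, against 0 in limma with the shared spread (2 at an unadjusted p under 0.05), 1 without the filter, and 4 each with quantile normalization, a filter at the 60th percentile and the mean of the probe sets. Of all genes tested these fits called 1.38%, 5.16%, 8.42%, 11.1% and 6.43%, in that order, against 8.26% in the main fit. Over all genes the shared spread called 1724 in MLL-NRIP3, against 196, and 174 in MLL-AF9, against 1039. In MLL-NRIP3 the mean of the probe sets called 83 and leaving out Control arrays 1 and 2 called 25. Leaving out each array in turn gave 0 to 6 of the 36 genes in MLL-NRIP3 (medians -0.1672 to 0.0178), against 0.238% to 6.87% of all genes tested. The 6 and the 6.87% came without Control array 3. In MLL-AF9 leaving out arrays gave 0 to 1 (medians -0.077 to -0.0321), against 4.67% to 7.63%. For the difference of responses it gave 0 to 6 (medians -0.0995 to 0.0622), against 2.63% to 12.4%. It gave 16 to 21 between RictorΔ/Δ groups (medians -0.3342 to -0.2119), against 45.2% to 52.9%. Between Control groups it gave 17 to 22 (medians -0.448 to -0.3359), against 42.7% to 51.8%.

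Between the models the median difference of the 36 genes on values as deposited was 0.1294 for RictorΔ/Δ and 0.0064 for Control groups, and for Control groups it was -0.6186 with a pseudocount of 1, -0.4942 with a filter at the 60th percentile and -0.2901 with the mean of the probe sets. On values as deposited 764 genes were called lower and 9003 higher between RictorΔ/Δ groups, against 2823 and 3882, and 608 and 8978 between Control groups, against 2733 and 3660. The differences of Oasl1 (0.1099), Dtx3l (0.1231) and Oas3 (0.1084) between RictorΔ/Δ groups, and of Ifi35 (0.1139) and Psmb8 (0.3042) between Control groups, then turned positive. The scaling itself sets these values, and the cause of the other changes was not tested.

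Arrays with the same replicate number did not deviate together, with correlations of 0.0578, -0.1348 and -0.0535 in MLL-NRIP3 and -0.0968, -0.0483 and 0.0245 in MLL-AF9. With the replicate block Usp18 in MLL-NRIP3 (adjusted p = 0.053), Oas2 in MLL-AF9 (0.058) and Ifi35 in the difference of responses (0.07) were not called in limma.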
